A study of Mus musculus and Bos taurus with 2 samples.

Results

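Ribosomal protein genes were examined in transcript models assembled from long-read cDNA of mouse and bovine embryos at the time the embryonic genome becomes active. Members were genes whose name, ignoring case, begins with Rpl or Rps and a number and carries at most a short suffix, together with Rpsa, Rplp0, Rplp1 and Rplp2, and which had at least 1 model on their own strand. By this rule 88 of 14090 genes with a sense model were members in mouse, with 231 of the 42028 models in that library. In bovine 81 of 13375 genes were members, with 176 of 40819 models. The mouse library came from late 2-cell embryos of the Slc:ICR stock, taken 36 h after in vitro insemination of oocytes from superovulated females and cultured in KSOM medium. The bovine library came from embryos at the 8-cell to 16-cell stage, taken 72 h after insemination, with oocytes from Japanese Black cattle or their F1 cross with Holstein and sperm of a Japanese Black bull. About 200 embryos made in vitro went into each library, and the labels name no genetic change and no treatment. With 1 library per species there is no replicate error, and nothing was tested between the species, which differ together in stage, hours and reference annotation.

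The cytosolic ribosome has a large and a small subunit, and each holds a set of ribosomal proteins on a core of ribosomal RNA. Most of these proteins are encoded by a single intron-containing gene that is active in every growing cell, and many of the introns carry small nucleolar RNAs (snoRNAs), which guide the chemical modification of ribosomal RNA. Mammalian genomes also hold many intronless copies of these genes, most of them pseudogenes. Their mRNAs typically begin with a C followed by a run of pyrimidines, the terminal oligopyrimidine motif through which growth signals control their translation. Oocytes bring a store of ribosomes and mRNA into the embryo, which starts to make ribosomes of its own around genome activation.

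The deposited models give exon positions, a gene name and a class code that relates each model to its closest reference transcript, with no read counts or coverage. Depth is therefore unknown, the lack of a model does not show that a gene was silent, and the number of models is not a measure of expression. Polyadenylated RNA was amplified with 14 PCR cycles. With 1 library at 1 stage per species, RNA stored from the oocyte and RNA newly made by the embryo cannot be told apart. The labelled stages were checked against marker genes. The mouse library held models of 9 of 9 genes of the 2-cell burst and 6 of 6 oocyte genes, and the bovine library 5 of 5 activation genes and 5 of 6 oocyte genes. Of 8 cumulus and granulosa genes, 3 had a model in mouse (Tnfaip6, Fshr and Inha) and 3 in bovine (Has2, Tnfaip6 and Foxl2). Of 4 sperm genes 2 had a model in each library. Of 6 listed blood genes 0 had a model in mouse and 4 in bovine, namely HBA, HBB, Ptprc and Cd3e. Gene names differ in part between the species, so a listed name without a model may be a name not used there. The counts of 6 may therefore be too low. The part of such other cells in the models described here was not tested.

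The set of ribosomal protein genes was nearly complete in both libraries. Of 79 listed core proteins, 47 of the large and 32 of the small subunit, 78 had a model under the listed name in mouse and 78 in bovine. The missing name in mouse was RPS3A, whose gene is called Rps3a1 there and had 1 exact model. In bovine it was RPL41, which encodes the smallest ribosomal protein and had an exact model in mouse. An exact match to a reference intron chain was present for 87 of 88 mouse members and 81 of 81 bovine members, while over all genes with a sense model the share was 72.5% in mouse and 65.5% in bovine. Rpl3l, a paralog of Rpl3 known from striated muscle, was the mouse member without an exact match. Its 4 models shared splice junctions with the reference, and 2 of them had 3 and 4 exons and spliced lengths of 470 and 665 bases near the end of the gene (mm10, chromosome 17, 24729537 to 24736149).

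Paralogs and retrocopies made up 11 of the mouse and 5 of the bovine members. Rpl22l1, a paralog of Rpl22, had 5 models in mouse and 2 in bovine, and Rps27l, a paralog of Rps27 known as a p53 target, had 2 and 3. Rpl7l1, a distant relative of Rpl7, had 2 and 3 models. Rpl39l, known from male germ cells, had 2 exact models in mouse. Rpl10l, a retrocopy of Rpl10 also known from male germ cells, had 1 unspliced exact model of 1023 bases on chromosome 12. The mouse annotation GENCODE classes Rpl32l, Rps3a2, Rps3a3 and Rps12l1 as processed pseudogenes and Rps4l as a transcribed processed pseudogene, and each had 1 unspliced exact model. These 5 and Rpl10l were the 6 single-exon models among the 231 mouse member models, and bovine members had 0. Reads of such near-identical copies can be assigned to either locus, so these copies are uncertain. In bovine, RPL26L1 had 1 model, and RPS4Y1 had 2 exact models of 2 exons, 1063 and 1135 bases long, at a locus on chromosome 23 (bosTau9, 10550055 to 10565808 and 10550055 to 10565885).

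Most members were assembled as a few short isoforms. The mouse library had a mean of 2.62 sense models per member (median 2), against 2.22 over all other genes (median 2). In bovine the order turned, with 2.17 per member against 2.48 (both medians 2). In mouse 61 of 88 members (69.3%) had at least 2 models, against 51.2% of all genes, and in bovine 53 of 81 (65.4%), against 57.9%. Member models were short, with a median spliced length of 752 bases and 5 exons in mouse, against 1983 bases and 7 exons for other genes. In bovine the medians were 699.5 bases and 5 exons, against 1831 bases and 6 exons.

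**Figure D1:**
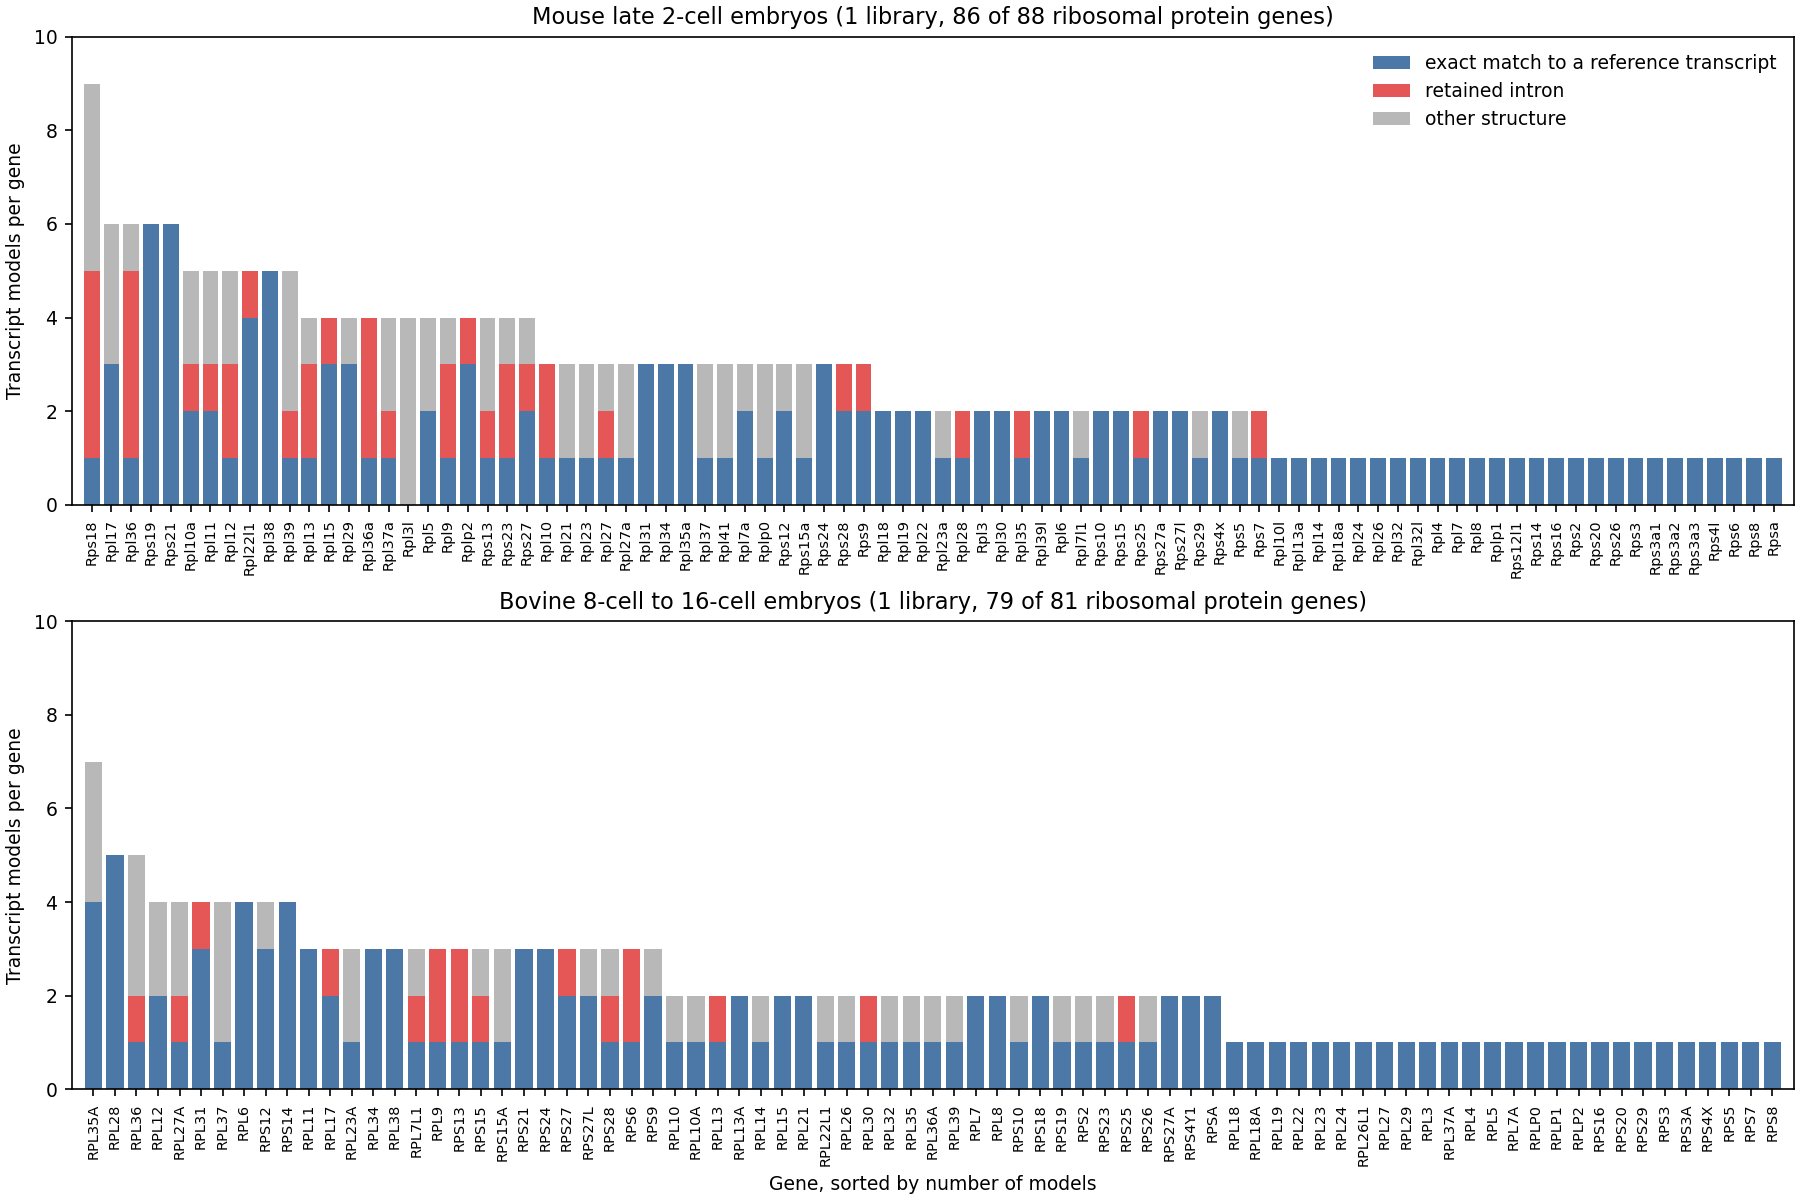
Number of transcript models (vertical axis) of ribosomal protein genes (horizontal axis, sorted; 86 of 88 mouse and 79 of 81 bovine members are drawn) in the mouse and the bovine library, split into exact matches, models with a retained intron and other structures. Rps18 has 9 models in mouse, 1 of them exact, and RPL35A has 7 in bovine, 4 of them exact.

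The genes with most models differed in the kind of model they gave. Rps18, which encodes a protein of the head of the small subunit, had the largest number in mouse with 9 models, of which 1 was exact (mm10, chromosome 17, 33951998 to 33956049, minus strand). Rps19, mutated in Diamond-Blackfan anaemia, and Rps21 had 6 models each, and all of these were exact matches. Rpl36 had 6 models with 1 exact, and Rpl17 had 6 with 3 exact. The 5 models of Rpl38, known for its role in translating Hox mRNAs, were all exact, whereas Rpl39 and Rpl12 each had 5 models with 1 exact. RPL35A, another Diamond-Blackfan gene, had the largest number in bovine with 7 models, of which 4 were exact. RPL28 followed with 5 models, all exact, and RPL36 with 5 models, 1 of them exact. Exact matches alone were found for 46 of 88 mouse members, against 43.2% of all genes, and 45 of 81 bovine members, against 31.5%. A single model was found for 27 mouse members, against 48.8% of all genes, and 28 bovine members, against 42.1%.

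Across the 78 symbols found in both libraries, 37 had more models in mouse (47.4%), 22 more in bovine (28.2%), and 19 the same number (24.4%). Over 8388 other shared symbols the shares were 32.5%, 39.9% and 27.6%. The libraries were assembled separately against different annotations, and the difference was not tested. At least 4 models in each species were found for 2 genes, RPL12, a protein at the base of the ribosomal stalk, and RPL36. In bovine RPL36 reached this number through 3 models that share no exon with its exact match. Both species had a single model for 9 genes (11.5%, against 16.7% of the other shared symbols).

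Members carried more exact and intron-retaining models, and fewer models of other altered structures, than the rest of the genes. In bovine, exact matches made up 69.3% of member models (122 of 176, 95% interval 61.9% to 76.0%) and 43.8% of the other sense models (43.3% to 44.4%). In mouse the shares were 60.6% (140 of 231, 54.0% to 67.0%) and 55.4% (54.8% to 56.0%), and these intervals overlap. The intervals are exact Clopper-Pearson intervals, and because models of 1 gene share a locus they cover counting error only. The class for models that share a junction with a reference transcript but differ elsewhere made up 22.9% of member models in mouse, against 33.6% of the others, and 20.5% against 43.9% in bovine. Truncated models contained within a reference transcript numbered 0 of 231 in mouse, which allows a share of up to 1.30%, against 4.69% of the other models. In bovine they numbered 1 of 176, 0.568%, against 6.61%. Retained-intron classes went the other way, with 15.6% in mouse (11.2% to 20.9%) against 3.09%, and 7.95% in bovine (4.42% to 13.0%) against 2.76%.

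**Figure D2:**
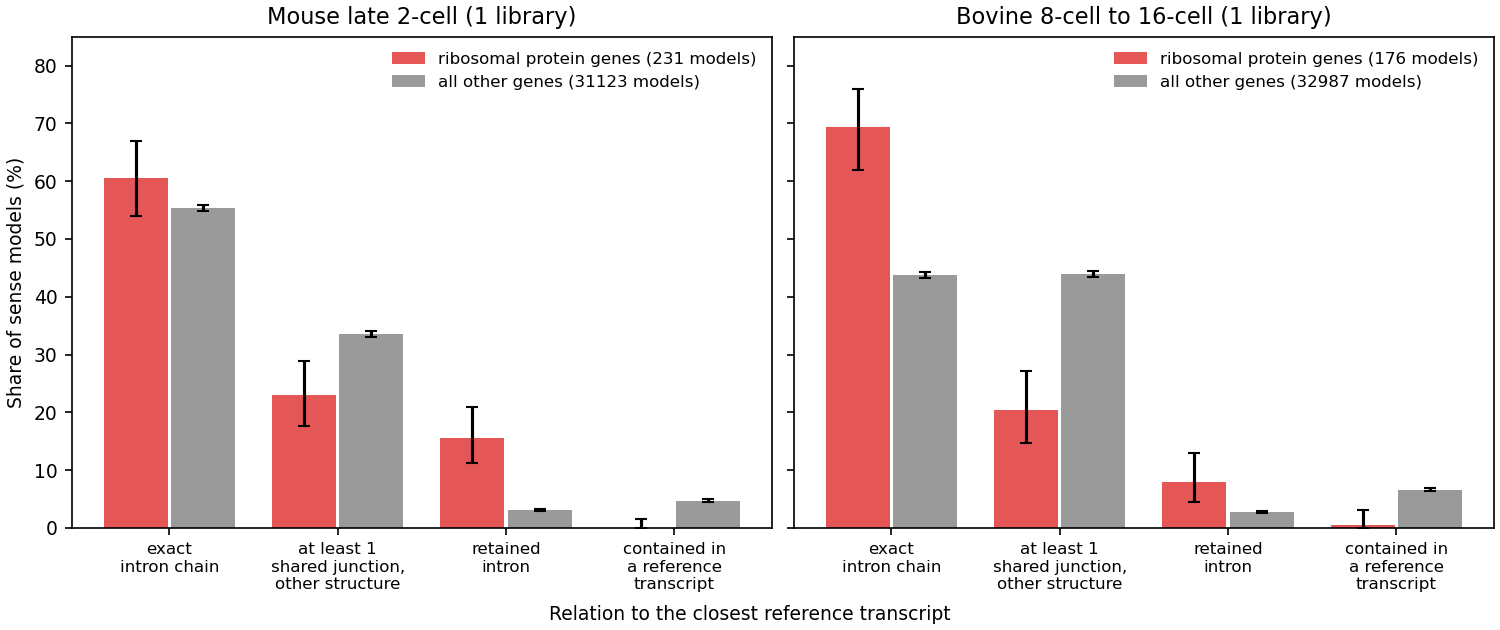
Share of sense models in 4 classes of relation to the closest reference transcript, for ribosomal protein genes and all other genes. Bars are shares and lines exact 95% intervals over models. Retained-intron models reach 15.6% of member models in mouse and 7.95% in bovine, against 3.09% and 2.76% of the other models.

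Introns were retained in models of many ribosomal protein genes, and in both libraries the share of such genes was well above that over all genes. A gene was counted when a model had a retained-intron class code or an exon that spanned an intron of one of the gene's exact matches. In mouse 25 of 88 members (28.4%) had such a model, against 6.35% of all genes. In bovine 14 of 81 (17.3%) did, against 6.27%. By role, the mouse genes were 15 of 46 for the large subunit, 9 of 31 for the small subunit and 1 of 11 paralogs. The bovine genes were 7 of 45, 6 of 31 and 1 of 5.

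The mouse large-subunit genes with a retained intron were Rpl9, Rpl10, Rpl10a, Rpl11, Rpl12, Rpl13, Rpl15, Rpl27, Rpl28, Rpl35, Rpl36, Rpl36a, Rpl37a, Rpl39 and Rplp2, the last a protein of the acidic stalk that recruits translation factors. The small-subunit genes included Rps7, Rps9, Rps13, Rps18, Rps23, Rps25, Rps27 and Rps28, and the paralog was Rpl22l1. In bovine they were RPL9, RPL13, RPL17, RPL27A, RPL30, RPL31, RPL36, RPS6, RPS13, RPS15, RPS25, RPS27, RPS28 and the paralog RPL7L1. RPS6 is the substrate of the S6 kinases.

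Counted by intron, 43 of 410 distinct introns of mouse members were retained in at least 1 model (10.5%, 7.69% to 13.9%), against 0.912% of 83912 introns of other genes (0.848% to 0.978%). In bovine 18 of 402 were retained (4.48%, 2.67% to 6.98%), against 0.765% of 73698. The retained introns were short and lay mostly at the start of the gene. Of the 43 in mouse, 25 were first introns, and their lengths ran from 76 to 1036 bases with a median of 209. Of the 18 in bovine, 13 were first introns, with lengths from 89 to 588 bases and a median of 176. First introns of mouse members were retained in 25 of 118 cases (21.2%), against 1.53% of first introns elsewhere, and later introns in 18 of 292 (6.16%), against 0.808%. In bovine the shares were 11.7% against 1.67% for first introns and 1.72% against 0.608% for later ones.

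Introns of ribosomal protein genes are shorter than those of other genes, with a median of 368 bases against 1303.5 in mouse and 468.5 against 1370 in bovine. The shares were therefore also taken within classes of length. Among mouse introns under 300 bases, 28 of 177 were retained in members (15.8%, 10.8% to 22.0%) and 3.28% elsewhere. From 300 to 599 bases, 11 of 96 were retained (11.5%, 5.86% to 19.6%), against 1.22%. In bovine the shares were 8.63% against 2.41% under 300 bases (12 of 139, 4.54% to 14.6%) and 5.22% against 1.64% from 300 to 599 bases (6 of 115, 1.94% to 11.0%). Of 73 bovine member introns of 1000 to 2999 bases, 0 were retained, which allows a share of up to 4.11%. Within these length classes under 600 bases the interval of the members lay above the share of the other genes.

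In other mouse genes 5642 of 12015 first introns had 3000 bases or more, and 0 of these were retained, so the shares were also taken by position and length together. Among mouse first introns under 300 bases, 13 of 51 were retained in members (25.5%, 14.3% to 39.6%) and 9.63% elsewhere, and from 300 to 599 bases 10 of 26 (38.5%, 20.2% to 59.4%), against 2.94%. These 10 include 3 overlapping introns of Rpl15, of 362, 384 and 498 bases, all spanned by the same model. The 25 retained first introns of mouse members came from 20 genes, and the 13 of bovine members from 11. Overlapping introns were not merged within these classes, so the intervals treat them as independent. Among later mouse introns under 300 bases the shares were 11.9% (15 of 126, 6.82% to 18.9%) and 2.68%. In bovine first introns under 300 bases, 7 of 38 were retained (18.4%, 7.74% to 34.3%), against 10.3%, and in later ones 5 of 101 (4.95%, 1.63% to 11.2%), against 1.67%. Both of these bovine intervals cover the share of the other genes, so no difference was detectable with these numbers of introns. From 300 to 599 bases 6 of 30 bovine first introns were retained (20%, 7.71% to 38.6%), against 4.80%. Later introns of 300 to 599 bases showed no detectable difference in either species, with 1 of 70 retained in mouse (1.43%, against 1.00% elsewhere) and 0 of 85 in bovine, which allows up to 3.53%, against 1.23%. Read depth is not held by the models, and its part in the difference was not tested. In mouse, 27 of the 43 retained introns (62.8%) lay inside an exon of the same gene in GENCODE, so those structures were already annotated there. For other genes the share was 55.0%.

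**Figure D3:**
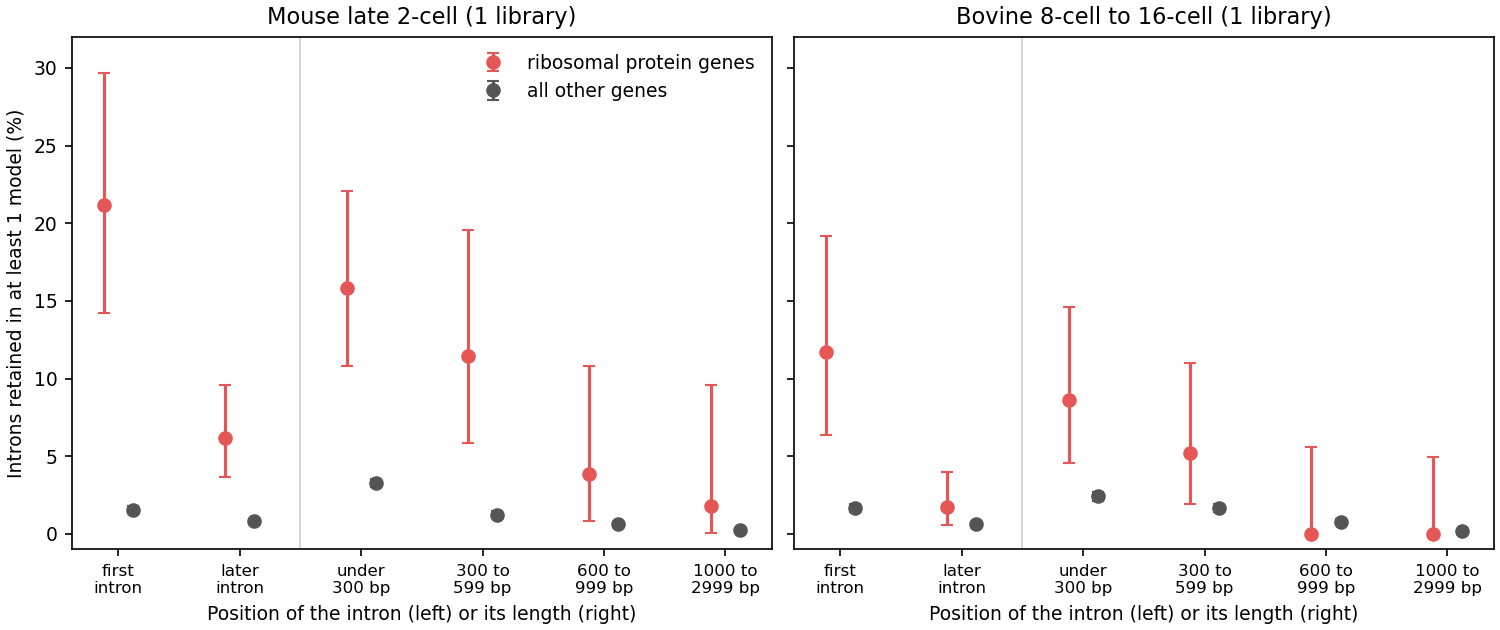
Share of distinct introns retained in at least 1 model, by position and by length, with exact 95% intervals over introns, for ribosomal protein genes and all other genes. Mouse members reach 21.2% for first introns and 15.8% for introns under 300 bases, against 1.53% and 3.28% for other genes.

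Examples of retained introns that lie between coding exons are printed because the sequence shows what such a model adds to the message. The bases come from GENCODE transcripts on GRCm38, the assembly that mm10 denotes, and are given on the strand of the gene. Capitals at each end mark the splice site bases GT and AG, and capitals inside mark the first stop codon met when the annotated reading frame runs into the intron.
Rps13 intron 2, chr7:116333775-116333899, minus strand: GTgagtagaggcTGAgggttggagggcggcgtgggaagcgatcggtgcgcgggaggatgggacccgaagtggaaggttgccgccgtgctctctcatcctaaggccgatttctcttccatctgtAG
Rpl12 intron 1, chr2:32961840-32962048, plus strand: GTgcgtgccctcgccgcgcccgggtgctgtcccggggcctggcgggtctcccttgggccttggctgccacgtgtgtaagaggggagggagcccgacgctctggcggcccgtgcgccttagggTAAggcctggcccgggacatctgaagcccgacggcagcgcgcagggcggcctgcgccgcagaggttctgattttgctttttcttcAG
Rpl22l1 intron 2, chr3:28806593-28806669, plus strand: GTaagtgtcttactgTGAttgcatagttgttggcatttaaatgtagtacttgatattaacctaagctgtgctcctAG

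In these 3 introns the stop codon began at base 13 of the Rps13 intron, base 123 of the Rpl12 intron and base 16 of the Rpl22l1 intron. The model of Rps13, a small-subunit protein, read 28 codons where the reference reads 151. The 2 Rpl12 models with intron 1 retained read 53 of 165 codons. The Rpl22l1 model read 38 of 122. The printed Rpl22l1 intron, of 77 bases, is the shorter of the introns of its exact matches that begin at that donor. The model also spans the longer one, of 144 bases, so it holds more intron sequence than is printed. In each of these models the annotated reading frame ended inside the retained intron.

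Reading frames were followed from the annotated start codon in all mouse member models for which the sequence was at hand. Of 37 models with a retained intron of an exact match, 30 could be read to a stop, and 7 could not because the intron sequence was not in the annotated transcripts. Of the 30, 17 ended early, in 12 genes, and 13 kept every codon and the stop of the reference. In 16 of the 17 the stop lay more than 50 bases before the last exon junction, the position that is commonly used to predict nonsense-mediated decay. The exception was an Rps18 model that ended in its last intron after 128 of 152 codons. Rps18 had 4 models whose frame ended inside intron 1 after 105 codons, 2 with the intron retained and 2 with its first part joined to the first exon.

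The shortest retained-intron frames were those of Rpl36a and Rpl10. In 2 Rpl36a models with intron 1 retained the frame had 8 of 106 codons, and in the third model, with intron 3 retained, it had 69. Rpl10, which joins the large subunit late in its assembly, had a model with introns 1, 2, 3 and 6 retained that read 8 of 214 codons, and another with intron 1 alone retained that read all 214. Frames were complete where the retained intron lay outside the coding part. This held for Rpl9, Rpl15, Rpl27, Rpl28, Rplp2, Rps7, Rps9, Rps25 and Rps28, for example with 125 of 125 codons in Rps25, and for the Rpl13 and Rpl36 models that could be read.

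Early stops were not confined to models with a retained intron. Of 128 exact matches read to a stop, 17 in 14 genes were shorter than the longest reference frame, and in 11 of them the stop lay more than 50 bases before the last junction. Not all of the 17 ended early. Models of Rpl5, Rpl22l1 and Rplp2 kept the reference stop, with 296 of 297, 121 of 122 and 114 of 115 codons. Shorter frames of Rps10 and Rps27l ended downstream of the reference stop. The 11 included a model of Rpl3, which shapes the peptidyl transferase centre, with 180 of 403 codons. They also included models of Rpl7a with 209 of 266, Rps9 with 139 of 194 and Rps12 with 78 of 132. Rpl3 and Rpl12 are textbook cases of ribosomal protein genes with decay-prone splice forms. Models of these kinds are thus also part of the reference annotation. Among 50 other altered models, 30 could be read, 19 kept the reference frame, 10 were shorter and 1, of Rps13, was longer with 184 codons. The start codon was missing from 16 and the sequence of 4 was not at hand.

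Introns that carry a snoRNA were absent from the retained introns of mouse members. GENCODE places 58 snoRNA genes in introns of 30 members. Of the 63 distinct snoRNA-bearing introns in the exact matches, 0 were retained, which allows a share of up to 4.76%. Of the 347 member introns without a snoRNA, 43 were retained (12.4%, 9.12% to 16.3%). Introns with a snoRNA had from 171 to 2955 bases with a median of 430, and those without had from 76 to 4766 with a median of 358. The shortest retained introns, from 76 bases, therefore had no snoRNA intron of their length to be set against. This holds within the class under 300 bases and among later introns too, so length was not matched there. Within single length classes the limits were wider, since 0 of 21 introns under 300 bases allows up to 14.3%, against 17.9% (28 of 156) without a snoRNA, and 0 of 21 from 300 to 599 bases allows 14.3%, against 14.7% (11 of 75). First introns were few among them, with 8 of 63. Among later introns 0 of 55 with a snoRNA were retained, which allows up to 5.45%, against 7.59% (18 of 237) without. In other genes 0 of 291 snoRNA introns were retained, which allows up to 1.03%, against 0.915% without, so no difference was detectable there.

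Of the 25 mouse genes with a retained intron, 6 also hosted a snoRNA in another intron. These 6 genes had 24 introns without a snoRNA, of which 11 were retained, and 6 with a snoRNA, of which 0 were. Because the genes were picked for a retained intron, and 0 of 6 allows a share of up to 50%, this is a description of the models and adds no support to the comparison over all introns. Rpl10 retained introns 1, 2, 3 and 6 and hosted Snora70 in intron 5. Rpl12 retained intron 1 and hosted Snora65 in intron 4, and Rps13 retained intron 2 and hosted Snord14a in intron 3. Rpl13 retained introns 1 and 2 and hosted Snord68 in intron 3, Rpl39 retained intron 1 and hosted Snora69 in intron 2, and Rplp2 retained intron 1 and hosted Snora52 in intron 3. A single member model had an exon over a snoRNA. In Rps13 a model of 7 exons carried an additional exon 4 (mm10, chromosome 7, 116333175 to 116333273) that covered 83 of the 87 bases of Snord14a, and this was the model with 184 codons.

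**Figure D4:**
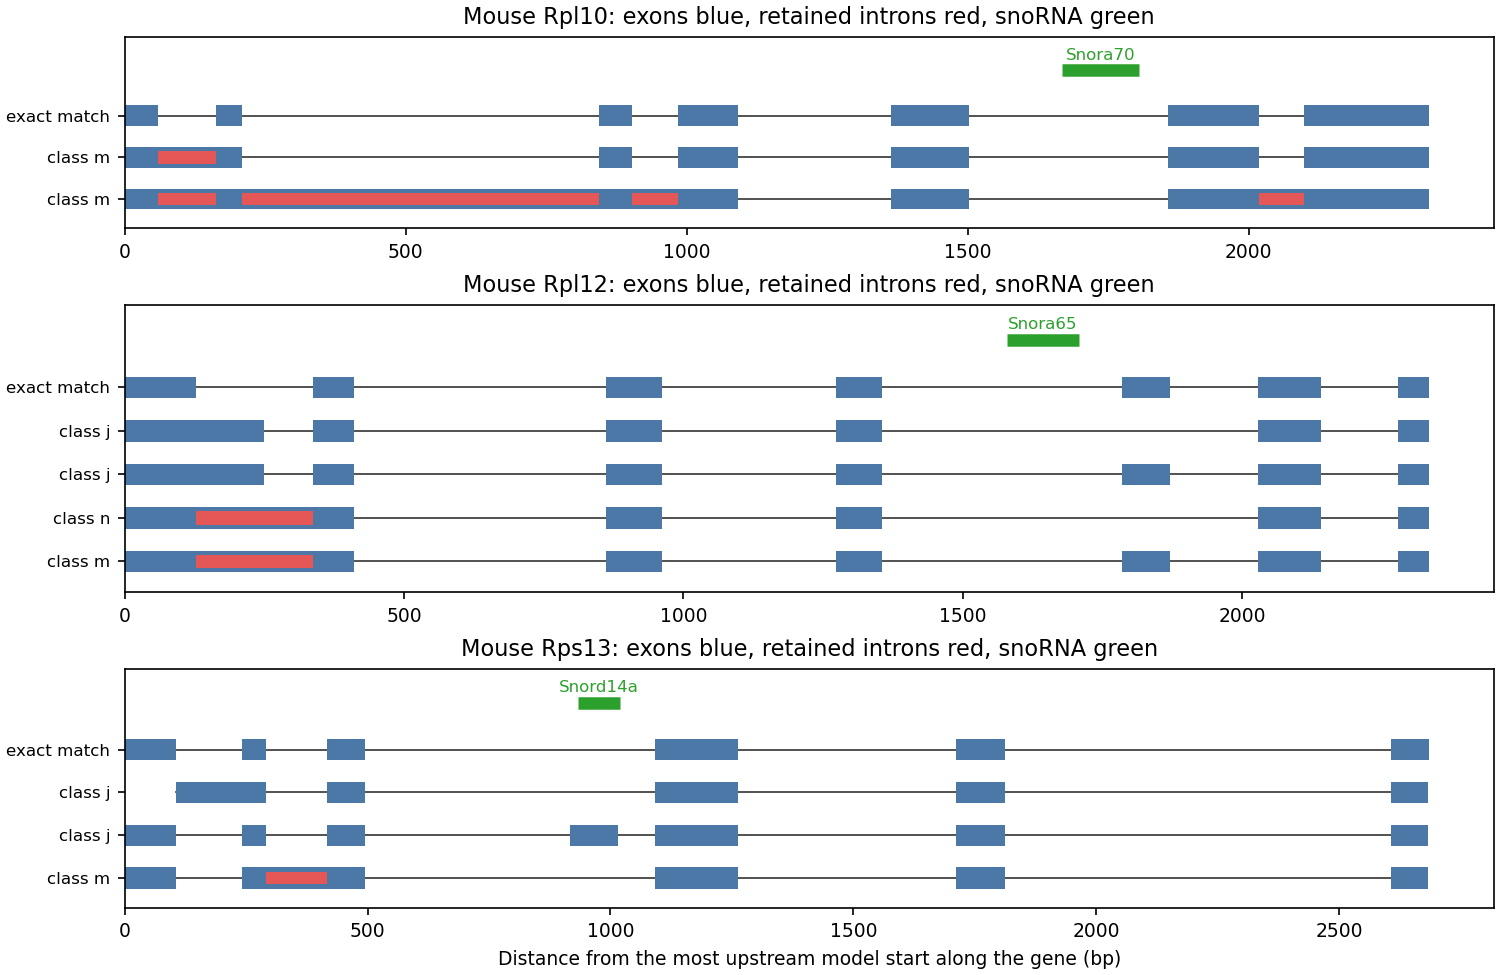
Exon maps of all models of mouse Rpl10, Rpl12 and Rps13, with distance along the gene in bp on the horizontal axis and 1 model per line. Exons are blue, retained introns red and annotated snoRNAs green. Retained introns lie outside the introns that hold Snora70, Snora65 and Snord14a, and 1 Rps13 model has an exon over Snord14a.

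Some genes retained an intron in both species. Among the shared symbols these were RPL9, RPL13, RPL36, RPS13, RPS25, RPS27 and RPS28, which is 28% of the 25 mouse genes and 50% of the 14 bovine genes. For other shared genes, 47 had a retained intron in both species, 15.5% of 304 in mouse and 14.3% of 329 in bovine. The overlap, and the part of read depth in it, was not tested.

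In 5 of the 7 genes the intron at the same position, in models with the same number of introns, was retained in both species. This count was not taken for other shared genes, so whether such a match is particular to members was not tested. First introns made up 25 of the 43 retained introns of mouse members and 13 of the 18 of bovine members. The matching intron was intron 1 of 5 in RPL13, intron 1 of 3 in RPL36, intron 1 of 7 in RPL9, intron 2 of 5 in RPS13 and intron 4 of 4 in RPS25. The lengths of the paired introns differed. The RPL13 intron had 207 bases in mouse and 175 in bovine, that of RPL36 137 and 177, that of RPL9 383 and 427, that of RPS13 125 and 174, and that of RPS25 93 and 109. In mouse the Rps25 intron begins after the stop codon, and the Rpl9 intron lies before the coding part. RPS28 retained its intron 3 in mouse and intron 1 in bovine.

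**Figure D5:**
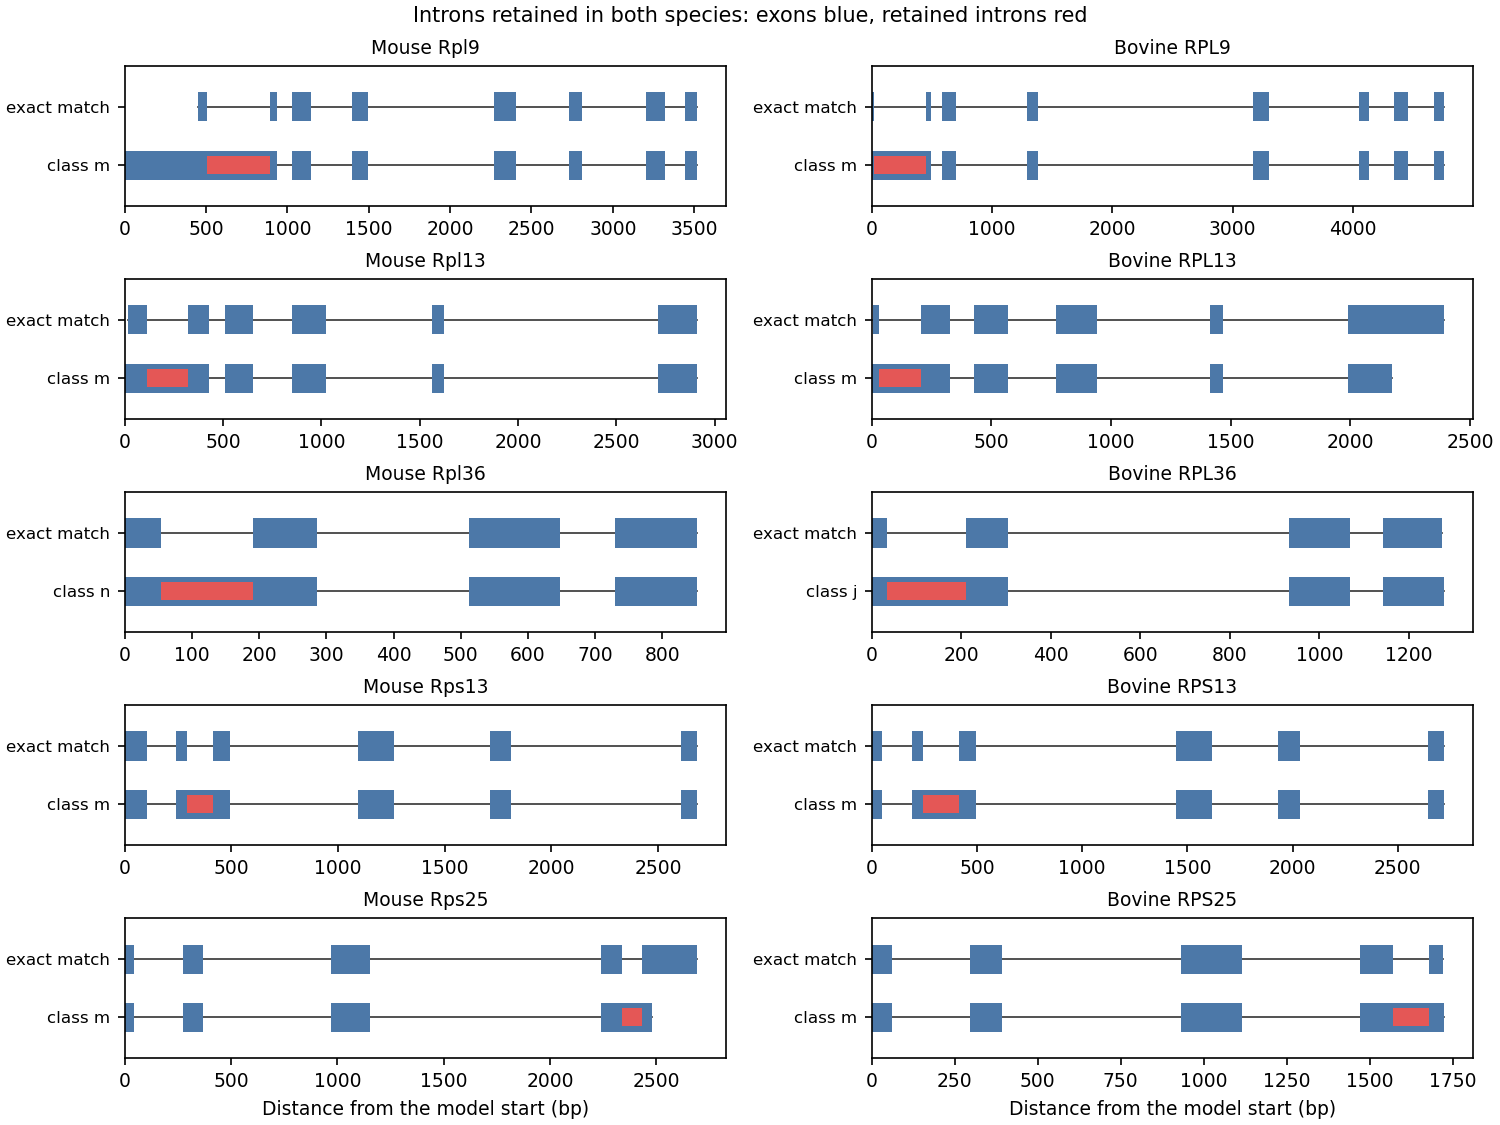
Exon maps of an exact match and of the intron-retaining model for 5 genes in mouse (left) and bovine (right), with distance from the model start in bp on the horizontal axis. Exons are blue and retained introns red. The red intron has the same number in both species, for example intron 4 of 4 in RPS25.

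Altered splice sites of ribosomal protein genes were mainly donors joined to the acceptor of a first intron. Among introns that share 1 end with an exact match and have a new end on the other side, mouse members had 29 with a new donor and 4 with a new acceptor. Donors were 87.9% of these (71.8% to 96.6%), against 61.9% in other genes. In bovine there were 23 new donors and 8 new acceptors, a donor share of 74.2% (55.4% to 88.1%), against 52.1%. Of the new donors, 25 of 29 in mouse joined the acceptor of a first intron (86.2%, 68.3% to 96.1%), against 50.4% in other genes, and 18 of 23 in bovine (78.3%, 56.3% to 92.5%), against 55.6%. First introns were also a larger part of all member introns, with 118 of 410 in mouse against 12015 of 83912 in other genes. In bovine they were 111 of 402 against 10898 of 73698. The donor shares were not adjusted for this. Some new donors belong to models whose first exon has no overlap to an exact match, as in mouse Rpl41, Rpl23 and Rplp0 and bovine RPL23A and RPL35A. Those models are counted again below among such first exons, and the overlap was not taken out. In mouse 12 of the 29 introns were in GENCODE.

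By gene, new donors were no more frequent in members than elsewhere. They were found in 18 of 81 mouse members with a spliced exact match (22.2%), against 21.2% of all such genes, and in 18 of 81 bovine members (22.2%), against 24.9%. New acceptors were found in 4 of 81 (4.94%, against 14.3%) in mouse, namely Rpl36, Rpl39, Rps13 and Rps18. In bovine they were found in 7 of 81 (8.64%, against 22.4%), namely RPL12, RPL22L1, RPL27A, RPS9, RPS15, RPS23 and RPS28. New pairings of known splice sites, which include exon skipping, were found in 2 mouse members (2.47%, against 9.91%) and 1 bovine member (1.23%, against 16.8%). Member models had fewer exons (median 5 against 7 in mouse, and 5 against 6 in bovine), and these shares per gene were not adjusted for it. The donor group in mouse included Rpl5 and Rpl11, which bind Mdm2 when not assembled into ribosomes, Rpl12, Rpl37a and Rps18. New donors were present in both species for RPL12, RPL23A, RPL27A, RPL37, RPL39 and RPS15A, 35.3% of the 17 such mouse genes and 33.3% of the 18 such bovine genes with a spliced exact match in both species. For other shared genes the overlap was 30.3% of 1209 and 26.1% of 1400, so the shares in members were close to these.

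Rpl37a and Rps18 show how first exons grew in steps. The first exon of Rpl37a, a zinc-binding protein of the large subunit, ended after 149, 250 or 541 bases in its altered models, all from the same start, and the last of these held the whole of intron 1. All 3 models read 18 of 92 codons. The 8 altered Rps18 models had first exons of 48, 48, 154, 204, 361, 400, 588 and 588 bases, and 6 of them shared 1 start site. The exon of 204 bases lay upstream of the others and was the only one with no part of the annotated first exon.

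First exons with no overlap to an exact match were found in 13 of 81 mouse members (16.0%, against 16.8% of all genes with a spliced exact match) and 8 of 81 bovine members (9.88%, against 17.9%). The mouse genes were Rpl5, Rpl9, Rpl17, Rpl21, Rpl23, Rpl23a, Rpl29, Rpl39, Rpl41, Rplp0, Rps15a, Rps18 and Rps27. The bovine genes were RPL10, RPL14, RPL23A, RPL26, RPL32, RPL35A, RPL36 and RPL37. When any GENCODE exon also counted as known, the mouse number was 8.

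In 8 of the 13 mouse genes such a first exon lay upstream of every exact match. The models began 6749 bp upstream in Rpl23, 5733 bp in Rpl9, 2822 bp in Rpl41, 2188 bp in Rplp0, 2180 bp in Rpl29, 1977 bp in Rpl17, 1278 bp in Rps27 and 384 bp in Rps18. The bovine genes with upstream first exons were RPL23A at 7351 bp, RPL37 at 1838 bp, RPL35A at 965 and 1097 bp, and RPL10 at 436 bp. In the other genes, bovine RPL36 excepted, the first exon began inside the span of the exact matches. Of the 21 mouse models with such a first exon, 13 could be read, and all 13 kept the codons and stop of the reference. The other 8, among them those of Rpl5 and Rpl23, lacked the annotated start codon.

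Rpl41 and Rplp0 illustrate the upstream starts. Rpl41 had 3 models, an exact match of 4 exons and 449 bases, and 2 models of 4 and 5 exons that began in a shared exon of 357 bases (mm10, chromosome 10, 128551634 to 128551990, minus strand) and read the same 25 codons. The exon of 138 bases that opened 2 models of Rplp0, the scaffold of the stalk, lay at 115557279 to 115557416 on chromosome 5, outside any GENCODE exon on its strand, and both models read 317 of 317 codons. RPL36 in bovine had 3 models that began 4413 bp downstream of the start of its exact match, so that they carry its name without sharing its exons. By their class codes (c, j and o) all 3 overlap exons of reference transcripts, and 1 is contained in such a transcript. Their exons are thus absent from the exact match but at least in part present in the annotation. Last exons with no overlap to an exact match were found in 2 of 81 mouse members (2.47%, against 8.62%), Rpl7l1 and Rplp0, and 2 of 81 bovine members (2.47%, against 14.7%), RPL36 and RPS6.

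Starts inside an intron were found for 6 of 81 mouse members (7.41%, against 3.78%), namely Rpl7a, Rpl10a, Rpl27a, Rps12, Rps13 and Rps29. In bovine they were found for 2 of 81 (2.47%, against 3.35%), RPL9 and RPL36A. More than 1 group of starts was recorded for 23 of 88 mouse members (26.1%, against 26.5%) and 13 of 81 bovine members (16.0%, against 33.9%).

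Model starts of mouse members coincided with annotated starts more often than those of other genes. RefSeq promoter entries on GRCm38.p6 were at hand for 64 of the 88 members. Of 109 exact matches in 63 of these genes, 92 began at the annotated base (84.4%, 76.2% to 90.6%), against 66.7% of exact matches elsewhere. Of 76 altered models 34 did (44.7%, 33.3% to 56.6%), against 13.1%. Such identity to the base means that starts may in part have been taken over from the reference, so what follows describes annotated starts more than starts read in these embryos.

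A pyrimidine tract was called where the base at a start was C and the next 4 bases were each C or T, read on the strand of the gene. It was present at 18 of 90 distinct start positions of members (20%, 12.3% to 29.8%), against 2.46% of 10432 positions in other genes. Of the 20 member positions away from the annotated start, 4 had a tract (20%, 5.73% to 43.7%), against 2.63%. With a tract allowed to begin within 5 bases of the start on either side, the shares were 45.6% (41 of 90) and 19.9%. The windows below show 5 members with a tract at the start and 2 without one there, because they hold the motif by which these mRNAs are known. Each runs from 30 bases before the start to 20 bases from it onwards, and capitals mark the unbroken pyrimidine run that begins at the start. They are RefSeq sequence on GRCm38.p6.
Rps18, chr17:33955646-33955695, minus strand: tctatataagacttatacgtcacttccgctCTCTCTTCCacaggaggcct
Rpl15, chr14:18270967-18271016, minus strand: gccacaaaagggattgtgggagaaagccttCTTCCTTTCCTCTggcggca
Rpl35, chr2:39005112-39005161, minus strand: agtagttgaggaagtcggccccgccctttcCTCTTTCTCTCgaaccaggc
Rps6, chr4:86857348-86857397, minus strand: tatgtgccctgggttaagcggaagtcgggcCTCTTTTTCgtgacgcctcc
Rps10, chr17:27635225-27635274, minus strand: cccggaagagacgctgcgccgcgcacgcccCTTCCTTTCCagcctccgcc
Rpl12, chr2:32961682-32961731, plus strand: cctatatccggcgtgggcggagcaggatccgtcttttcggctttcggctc
Rps25, chr9:44407684-44407733, plus strand: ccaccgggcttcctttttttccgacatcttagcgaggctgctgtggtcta

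The run was 13 bases long in Rpl15, 11 in Rpl35, 10 in Rps10 and 9 in both Rps18 and Rps6. The Rps18 start was shared by 7 of its 9 models, altered ones included. In Rpl12 and Rps25 the base at the annotated start was a purine. Rpl12 had a tract that began within 5 bases of the start and is among the 41 positions counted under that rule, whereas Rps25 is not. All 5 Rpl12 models began at that position.

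Other genes tied to ribosomal proteins in name or function were described from a list. The list of 25 held ubiquitin fusions with a ribosomal protein, translation elongation and initiation factors, S6 kinases and nascent chain factors. It also held Rack1, Tpt1, Pabpc1, Larp1, Mtor, Rptor, Eif4ebp1 and Nap1l1. Of the 25, 24 had a model in each library, with a median of 2 models. EEF1A2, the elongation factor of muscle and neurons, had none. Fau, which encodes a ribosomal protein fused to a ubiquitin-like domain, had 3 models in mouse and 3 in bovine. Rack1, a scaffold on the small subunit, had 1 and 2. A retained intron was found in 1 of 24 in mouse, the kinase gene Rps6kb2. In bovine it was found in 5 of 24, FAU, EEF1B2, EEF1E1, NAP1L1 and RPS6KB2. Over all genes the shares were 6.35% and 6.27%. A count of 1 is near that share, and nothing is read from either count of so short a list.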

How the data were processed

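Polyadenylated RNA of about 200 pooled embryos per species was sequenced as PCR-amplified cDNA on a nanopore sequencer, per the labels' protocols. For each library the authors deposited StringTie models, with the start and end positions of exons and gffcompare class codes, per the file headers and attributes, on mm10 and bosTau9, per the submitters' processing notes. No counts, coverage or abundance are held. Aligner, versions and filters: not given in the sources used here.

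Sense models had class code =, c, k, m, n, j or o. Altered structures were found by comparing each model with the exact matches of its gene. The mouse models were compared with GENCODE M21 and RefSeq promoters of the same assembly. Python 3.11.15, scipy 1.17.1 (exact Clopper-Pearson 95% intervals) and matplotlib 3.10.9 were used, and a count of 0 was given the limit of 3 counts. Event calls were checked on models with planted events. Intervals treat models as independent, which models of 1 locus are not. There was 1 library per species, so no test was made.

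Genes were named by rule: those with most models, listed proteins without a model, members without an exact match, paralogs, and those with a retained intron or a first or last exon outside the exact matches. Examples of reading frames and printed sequences were chosen after their values were seen. Members and lists were chosen with earlier results of these data known. Splits by intron length, position and snoRNA, splice site classes and reading frames were chosen after seeing the data. Frames start at the annotated start codon found in most of a gene's protein-coding GENCODE transcripts. Ties were settled by the longest frame among the exact matches. Bovine sequences were not analysed here. Values of a few single genes are not reported here.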

Additional observations from a re-analysis of the deposited data

Results flagged for a closer look

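Models outside the set by name were found in mouse. Genes named as pseudogenes of ribosomal proteins had 88 sense models in 76 genes, of which 70 were single-exon and 70 exact matches. They cover 71 of the 300 such names in the annotation. They were singled out because they lie in data the comparisons do not use. Near-identical copies can share reads, and whether these loci or their parent genes gave the reads was not tested.

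On the strand opposite to members lay 4 mouse models, at Rps12, Rpl10l, Rpl3l and Rpl28, and they were singled out for the same reason. They had 1, 3, 5 and 4 exons and 774, 1169, 807 and 837 bases. In bovine, 3 models lay opposite to exons of RPL22L1, RPLP1 and RPS14, and 2 shared introns with a member on the opposite strand.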

How the results depend on the processing

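No paired analysis was possible because each species had 1 library. Leaving out replicates was not possible for the same reason. With exact matches alone, 87 mouse and 81 bovine members had a model, and the counts of genes with a retained intron stayed within 1.5 times of the main count under both other rules (25 in mouse under each, 12 and 14 in bovine). The mean number of models per mouse member was 2.74 over multi-exon models and 2.73 over core proteins, against 2.62, and in bovine 2.17 over core proteins, which is the main value to 2 decimals. Averaged over genes, the exact-match share was 72.4% in mouse and 76.7% in bovine. Mouse members with a first exon outside the exact matches numbered 8 against GENCODE, and bovine ones 5 where the exon had to lie at least 100 bp from any exon of an exact match. The share of starts at a pyrimidine tract was 45.6% within 5 bases. Merging overlapping introns, an alternative chosen after seeing the data, gave retained shares of 9.75% in mouse (35 of 359) and 4.36% in bovine (16 of 367), against 0.866% and 0.739% in other genes. Depth is unknown, so absent models set no limit on expression.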
